A study of Homo sapiens with 18 samples.

Results

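The genes described here encode the CDK inhibitors of the INK4 family (CDKN2A, CDKN2B, CDKN2C and CDKN2D) and of the CIP/KIP family (CDKN1B and CDKN1C), in melanoma cells given a CDK4/6 inhibitor or a PRMT5 inhibitor. They were chosen by name. Of the 6 genes, 4 have a row among the 20705 genes of the count table, and these are CDKN1B, CDKN1C, CDKN2C and CDKN2D. CDKN2A and CDKN2B are not analysed here. The third CIP/KIP gene, CDKN1A, appears only within the list of pathway genes.

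The 18 poly-A RNA-seq libraries came from 2 established human melanoma lines, CHL1 and A375. CHL1 cells, which are BRAF wild type, NRAS wild type and p53 mutant, were grown in DMEM. A375 cells, which are BRAF mutant and p53 wild type, were grown in RPMI-1640. The 9 groups hold 2 libraries each. CHL1 cells received DMSO for 72 hours (control), palbociclib at 1 µM for 72 hours or for 6 days (CDK4/6i), or GSK3326595 at 500 nM for 72 hours (PRMT5i). A375 cells received the same 4 treatments and also had a 6-day control of their own, whereas both CHL1 times are set against the 72-hour control. The genotype label reads WT for both lines, and each line is 1 model. The paper says that the culture conditions were grown in 2 replicates, without saying whether these were independent experiments. The p-values therefore measure only the spread between these libraries. The A375 6-day libraries carry the same library series name as all 8 of the CHL1 line, and the 72-hour A375 libraries, 6 in number, carry another. Time and library series therefore cannot be told apart between the A375 times.

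D-type cyclins bind CDK4 and CDK6, and these kinases phosphorylate the retinoblastoma protein, which lets E2F factors switch on the genes of S phase. INK4 proteins bind CDK4 and CDK6 themselves and keep D cyclins away from them. CIP/KIP proteins instead embrace whole cyclin-CDK complexes: they block CDK2 complexes, and they can also hold cyclin D and CDK4 together. Palbociclib imitates the INK4 action with a small molecule that sits in the ATP pocket of CDK4 and CDK6. PRMT5 is an arginine methyltransferase whose substrates include histones and splicing factors. The INK4 locus on chromosome 9, which carries CDKN2A and CDKN2B, is among the most often deleted loci in melanoma.

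CDKN1B encodes p27 (Kip1), a brake on cyclin E-CDK2 that is removed largely by ubiquitination through SKP2. The gene lies on chromosome 12 at chr12:12838432-12875303 on the plus strand of GRCh37. Its span overlaps that of GPR19 without sharing exon bases. CDKN1C encodes p57 (Kip2), which is imprinted and is known from cell cycle exit during development. It lies at chr11:2904443-2907005 on the minus strand. CDKN2C encodes p18 (INK4C) and lies at chr1:51426417-51440306 on the plus strand. An antisense long noncoding RNA without a row in the table overlaps 617 bases (20.4%) of its exons. The library kit's strandedness is not given in the sources used here, so reads of that antisense RNA could be counted with CDKN2C. CDKN2D encodes p19 (INK4D) and lies at chr19:10677136-10679735 on the minus strand.

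Promoter windows, running from 250 bases before to 50 bases after an annotated start, were read from RefSeq on GRCh38.p14 for 3 of the 4 genes. They are shown because E2F factors lie downstream of the RB protein, and the windows differ in holding an E2F-type word. CDKN1C has no window, and no binding of E2F was measured. Capitals mark each E2F-type word, searched on both strands as the word TTGGCGC, the word TTCCCGC, the word TTCGCGC or the word TTGCCGC.

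CDKN2C, chr1:50968456-50968755, plus strand: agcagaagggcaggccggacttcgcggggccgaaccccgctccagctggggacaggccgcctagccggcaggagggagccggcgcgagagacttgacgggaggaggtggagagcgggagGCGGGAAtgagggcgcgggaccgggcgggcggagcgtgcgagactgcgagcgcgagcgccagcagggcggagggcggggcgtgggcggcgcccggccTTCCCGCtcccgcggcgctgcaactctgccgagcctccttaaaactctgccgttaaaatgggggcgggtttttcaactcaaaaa

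CDKN1B, chr12:12717118-12717417, plus strand: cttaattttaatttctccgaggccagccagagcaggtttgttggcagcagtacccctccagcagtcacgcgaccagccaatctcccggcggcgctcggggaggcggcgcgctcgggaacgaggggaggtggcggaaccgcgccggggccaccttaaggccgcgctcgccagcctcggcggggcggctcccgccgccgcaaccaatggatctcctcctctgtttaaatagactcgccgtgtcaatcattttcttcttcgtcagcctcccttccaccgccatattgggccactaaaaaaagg

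CDKN2D, chr19:10568930-10569229, minus strand: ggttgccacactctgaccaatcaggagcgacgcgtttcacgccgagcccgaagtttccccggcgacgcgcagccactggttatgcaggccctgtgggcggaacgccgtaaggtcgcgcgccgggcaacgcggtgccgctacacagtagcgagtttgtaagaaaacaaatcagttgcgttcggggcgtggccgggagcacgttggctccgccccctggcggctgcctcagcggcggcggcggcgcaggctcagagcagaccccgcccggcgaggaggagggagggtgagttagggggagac

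The CDKN2C window held 2 E2F-type words, 131 and 34 bases before the start, of which the first reads on the minus strand. The windows of CDKN1B and CDKN2D held none, nor did the windows at the 2 other annotated starts of CDKN2C, at chr1:50960495-50960794 and chr1:50969995-50970294. Of 35116 such windows in the genome, 13% held at least 1 of these words. The GC-box word GGGCGG occurred 6 times in the CDKN2C window shown, 3 times in that of CDKN2D and once in that of CDKN1B, and 45% of all windows held it. The forkhead word GTAAACA, the letters bound by FOXO factors, was in none of these windows and in 3.42% of all. No match of any of the 3 motifs overlapped a match of a different motif. In the CDKN2C window the GC-box matches 109 and 105 bases before the start share bases with each other. A missing word says only that these letters are not in the window.

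Total counts ran from 16213475 to 37424081 per library. Levels are given as CPM, the reads of a gene scaled to a common library total after TMM scaling. No replicate pair agreed within sampling noise. Of the melanocyte-lineage genes, MITF ran from 63.8 to 211 CPM over both lines, DCT from 36.3 to 142 CPM in CHL1 but from 0 to 1.79 CPM in A375, S100B from 11.2 to 128 CPM in CHL1 and from 3.57 to 108 CPM in A375, and PMEL, TYR and TYRP1 stayed at or below 5.02 CPM in every library. In A375 S100B read 4.01 and 3.57 CPM in the 72-hour control. It was already at 35.8 ± 12.7 CPM (SD, n = 2) in the 6-day control, against 108 and 76.1 CPM with CDK4/6i at 6 days. SOX10 and MLANA are not analysed here. EPCAM, an epithelial marker, stayed at or below 2.59 CPM, and PTPRC, a leukocyte marker, ran from 7.41 to 16.8 CPM in CHL1 and from 0.145 to 0.588 CPM in A375. The libraries also differed in how levels followed the GC content of transcripts. From the lowest to the highest decile of genes by GC, the mean departure from the line's median level dropped by 2.32 and 1.88 on the log2 scale in the CHL1 PRMT5i libraries and by 2.18 and 1.09 in the A375 6-day controls, while the other 14 libraries lay between -0.33 and 0.56. CDKN1B transcripts are 42.7% GC, those of CDKN2C 58.1%, CDKN2D 61.2% and CDKN1C 63.8%. Changes are therefore given as measured and, where it matters, after a GC correction, which removes from each library whatever follows GC content, whatever its source.

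Over all libraries CDKN1B was the member with the most reads and the one whose direction differed most plainly between lines: treated CHL1 libraries held more of it than their controls, and treated A375 libraries less, though the difference passed the test only at 6 days and under PRMT5i in CHL1 and at 6 days in A375. CDKN2C was lower after 72 hours of CDK4/6i in both lines, 0.600-fold in CHL1 and 0.551-fold in A375, and in A375 it went on to 0.264-fold at 6 days. The 72-hour call was lost without any of the compared libraries in CHL1, and without most of them in A375. CDKN1C was lower at 6 days in both lines. CDKN2D was not called in any CDK4/6i comparison with its own control on the counts as deposited (in A375 at 6 days it passed against the 72-hour controls) and was lowest in CHL1 cells under PRMT5i, at 0.342-fold of its control. That PRMT5i fall was no longer called after GC correction. In bulk RNA, fewer cells that express a gene and less of its RNA per cell cannot be told apart.

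**Figure D1:**
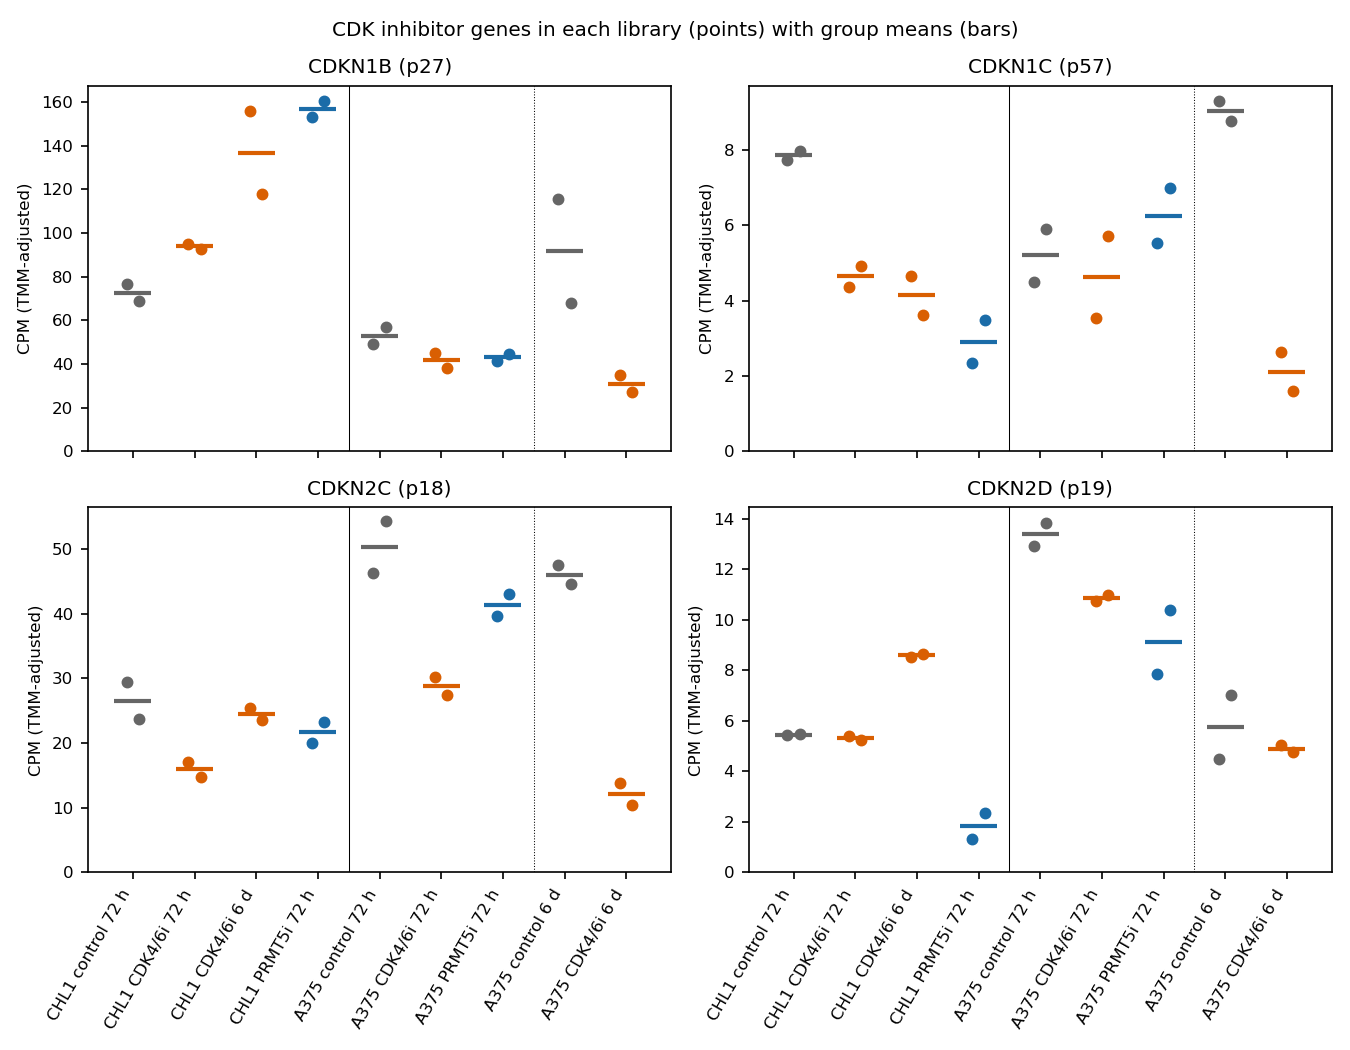
Level of each CDK inhibitor gene (CPM, vertical axis from 0) in each of the 18 libraries (points), with the mean of the 2 libraries of each of the 9 groups (bars). A solid line separates CHL1 from A375 and a dotted line the A375 6-day groups. CDKN1B rises from 76.5 and 68.8 CPM in the CHL1 control to 153 and 161 CPM under PRMT5i, and the 2 A375 6-day controls stand apart at 116 and 67.8 CPM.

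Changes were tested with edgeR's quasi-likelihood test over all 20705 genes with Benjamini-Hochberg adjustment, and called at an adjusted p under 0.05, with no replicate block. With CDK4/6i for 72 hours in CHL1, 1 of the 4 members was called, CDKN2C, which fell, against 4.98% of all genes (2.27% higher, 2.72% lower). At 6 days in CHL1, 2 of 4 were called against 16.6% (8.83% higher, 7.8% lower), with CDKN1B higher and CDKN1C lower. With PRMT5i in CHL1, 3 of 4 were called against 54% of all genes (26.4% higher, 27.6% lower), with CDKN1B higher and CDKN1C and CDKN2D lower. In A375, CDK4/6i gave 1 of 4 at 72 hours against 13.3% (6.22% higher, 7.11% lower), CDKN2C again lower, and 3 of 4 at 6 days against 43.1% (21.8% higher, 21.3% lower), all lower. PRMT5i in A375 gave 0 of 4 in edgeR against 2.61% (0.874% higher, 1.74% lower), with 1 of 4 at an unadjusted p under 0.05 and 0 of 4 by DESeq2. No share of all genes at an unadjusted p was counted, here or below, so member counts at that threshold are not read as a result. GC correction gave 1 of 4 for A375 PRMT5i, where 1403 of all 13675 genes in that fit were called. The counts at 72 hours also depend on the fit: a replicate block gave 3 of 4 for both A375 treatments and 0 of 4 for CHL1 CDK4/6i. With that block 8752 of the 20705 genes were called for A375 CDK4/6i and 6113 for A375 PRMT5i. The gene-by-gene values below are from the fit without the block. Both treated libraries lay on the same side of both controls for 4, 3 and 4 of the 4 members in CHL1 with CDK4/6i at 72 hours, at 6 days and with PRMT5i, against 58.1%, 60.8% and 75.8% of all genes. In A375 this held for 3 of 4 members in each comparison, against 66.3%, 68% and 53.1% of all genes. The median log2 fold change of the members was -0.38, 0.29 and -0.84 in the 3 CHL1 comparisons in this order, where the median over all genes was 0.00, 0.03 and 0.00. In A375 it was -0.38, -1.74 and -0.30, against 0.00, 0.10 and 0.00 over all genes.

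**Figure D2:**
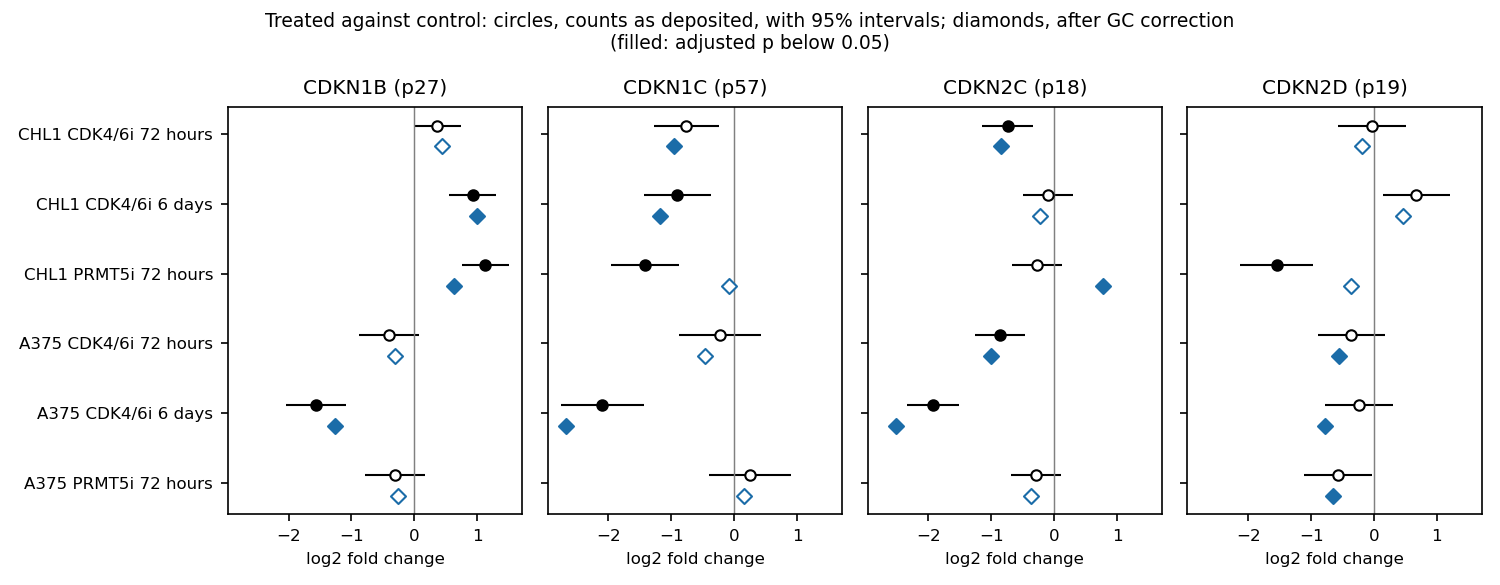
Log2 fold change against the control (horizontal axis) of the 4 CDK inhibitor genes in the 6 treatment comparisons. Circles with 95% intervals are from counts as deposited, diamonds are after GC correction, and filled symbols have an adjusted p under 0.05. CDKN1B lies to the right of 0 in all 3 CHL1 comparisons and to the left in all 3 A375 comparisons, both with and without the correction.

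CDKN1B, the p27 gene, stood at 76.5 and 68.8 CPM in the CHL1 control. It read 94.9 and 92.7 CPM after 72 hours of CDK4/6i, 156 and 118 CPM after 6 days, and 153 and 161 CPM under PRMT5i. In each of these groups both treated libraries lay above both controls. The 72-hour CDK4/6i difference of 0.37 on the log2 scale (SE 0.17, 95% interval 0.00 to 0.74) did not pass (edgeR adjusted p = 0.253). At 6 days CDKN1B rose 1.90-fold (log2 0.93, SE 0.17, edgeR adjusted p = 0.00456), and this call ended without control replicate 2 (edgeR adjusted p = 0.0765). Under PRMT5i it rose 2.19-fold (log2 1.13, SE 0.17, edgeR adjusted p = 0.000265). GC correction left the 6-day value at 1.00 (edgeR adjusted p = 0.000731) and brought the PRMT5i value to 0.62 (edgeR adjusted p = 0.00657).

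In A375 the same gene ran the other way. The 72-hour controls read 49.0 and 56.9 CPM, the CDK4/6i libraries 44.95 and 38.2 CPM and the PRMT5i libraries 41.5 and 44.6 CPM. All 4 treated libraries lay below both controls, but neither difference passed: -0.41 (SE 0.22, edgeR adjusted p = 0.259) for CDK4/6i and -0.31 (SE 0.22, edgeR adjusted p = 0.542) for PRMT5i. At 6 days the treated libraries read 34.7 and 26.96 CPM against 116 and 67.8 CPM in the controls. CDKN1B fell to 0.338-fold (log2 -1.57, SE 0.23, edgeR adjusted p = 0.000101), and after GC correction the value was -1.26. The 2 controls of this comparison are far apart, and both also lie above the 72-hour controls. Set against the 72-hour controls instead, the 6-day value was -0.82 (edgeR adjusted p = 0.0105).

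CDKN1C, the p57 gene, had the fewest reads of the members in all A375 groups but the 6-day control. In CHL1 it went from 7.74 and 7.98 CPM in the control to 4.37 and 4.93 CPM after 72 hours of CDK4/6i and 4.65 and 3.63 CPM after 6 days. Every treated library lay below both controls. The 72-hour difference of -0.76 (SE 0.24) did not pass (edgeR adjusted p = 0.0936), though it did after GC correction at -0.95 (edgeR adjusted p = 0.0127). At 6 days CDKN1C fell to 0.534-fold (log2 -0.90, SE 0.24, edgeR adjusted p = 0.0261). This call ended without control replicate 1 (edgeR adjusted p = 0.118), control replicate 2 (0.155) or 6-day CDK4/6i replicate 2 (0.142). The PRMT5i libraries read 2.35 and 3.48 CPM, a fall to 0.375-fold (log2 -1.41, SE 0.25, edgeR adjusted p = 0.000568). That difference was -0.09 after GC correction (edgeR adjusted p = 0.785), so the call was lost when the trend of all genes with GC content was taken off.

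In A375 the CDKN1C libraries of 72 hours overlapped: 4.49 and 5.91 CPM in the control, 3.54 and 5.71 CPM with CDK4/6i, and 5.54 and 6.98 CPM with PRMT5i. Neither change passed, at -0.23 (SE 0.31, edgeR adjusted p = 0.688) and 0.25 (SE 0.31, edgeR adjusted p = 0.748). At 6 days the controls read 9.32 and 8.77 CPM and the treated libraries 2.62 and 1.60 CPM. CDKN1C fell to 0.234-fold (log2 -2.10, SE 0.31, edgeR adjusted p = 0.000118), the steepest fall of any member in the 6 treatment comparisons. The value was -2.68 after GC correction and -1.34 against the 72-hour controls (edgeR adjusted p = 0.00398).

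CDKN2C, the p18 gene, read 29.4 and 23.6 CPM in the CHL1 control. It read 17.1 and 14.8 CPM after 72 hours of CDK4/6i, and at 6 days it was back among the controls at 25.4 and 23.6 CPM. The 72-hour fall to 0.600-fold (log2 -0.74, SE 0.19) passed narrowly (edgeR adjusted p = 0.0430). It was lost without any of the 4 libraries, at edgeR adjusted p = 0.326 without control replicate 1, 0.153 without control replicate 2, 0.200 without CDK4/6i replicate 1 and 0.306 without CDK4/6i replicate 2, with the log2 value between -0.89 and -0.57. The 6-day difference was -0.10 (SE 0.18, edgeR adjusted p = 0.765). PRMT5i libraries read 20.0 and 23.3 CPM, a difference of -0.28 (SE 0.18, edgeR adjusted p = 0.229) that turned to 0.78 after GC correction (edgeR adjusted p = 0.00365). The direction of CDKN2C under PRMT5i in CHL1 thus depends on that correction.

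In A375 CDKN2C stood higher, at 46.2 and 54.2 CPM in the 72-hour control. It fell to 30.3 and 27.4 CPM with CDK4/6i, which is 0.551-fold (log2 -0.86, SE 0.19, edgeR adjusted p = 0.00705). The call ended without control replicate 2 (edgeR adjusted p = 0.116), CDK4/6i replicate 1 (0.0641) or CDK4/6i replicate 2 (0.115). PRMT5i libraries read 39.6 and 43.0 CPM, below both controls, and the difference of -0.30 (SE 0.19) did not pass (edgeR adjusted p = 0.479). At 6 days the controls read 47.5 and 44.6 CPM and the treated libraries 13.8 and 10.5 CPM. The fall to 0.264-fold (log2 -1.92, SE 0.19, edgeR adjusted p = 6.95e-06) was -2.52 after GC correction and -2.09 against the 72-hour controls (edgeR adjusted p = 9.62e-07).

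CDKN2D, the p19 gene, read 5.42 and 5.46 CPM in the CHL1 control and 5.41 and 5.25 CPM after 72 hours of CDK4/6i, a difference of -0.03 (SE 0.25, edgeR adjusted p = 0.997). After 6 days it read 8.54 and 8.63 CPM, above both controls, and the difference of 0.67 (SE 0.25) did not pass (edgeR adjusted p = 0.0832). Under PRMT5i it read 1.31 and 2.37 CPM, which are 39 and 66 reads. The fall to 0.342-fold (log2 -1.55, SE 0.27, edgeR adjusted p = 0.000526) became -0.36 after GC correction (edgeR adjusted p = 0.160). As with CDKN1C, the CHL1 PRMT5i call on CDKN2D was lost when the trend of all genes with GC content was taken off.

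In A375 CDKN2D was 12.9 and 13.8 CPM in the 72-hour control, 10.7 and 11.0 CPM with CDK4/6i and 7.84 and 10.4 CPM with PRMT5i. Neither change passed, at -0.36 (SE 0.25, edgeR adjusted p = 0.386) and -0.57 (SE 0.25, 95% interval -1.11 to -0.03, edgeR adjusted p = 0.282), and both passed after GC correction, at -0.56 (edgeR adjusted p = 0.0348) and -0.65 (edgeR adjusted p = 0.0411). The 6-day libraries overlapped, with controls at 4.48 and 7.01 CPM and treated libraries at 5.03 and 4.76 CPM. Their difference was -0.24 (SE 0.26, edgeR adjusted p = 0.475), or -0.78 after GC correction (edgeR adjusted p = 0.00552). Against the 72-hour controls it was -1.50 (edgeR adjusted p = 0.000347).

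**Figure D3:**
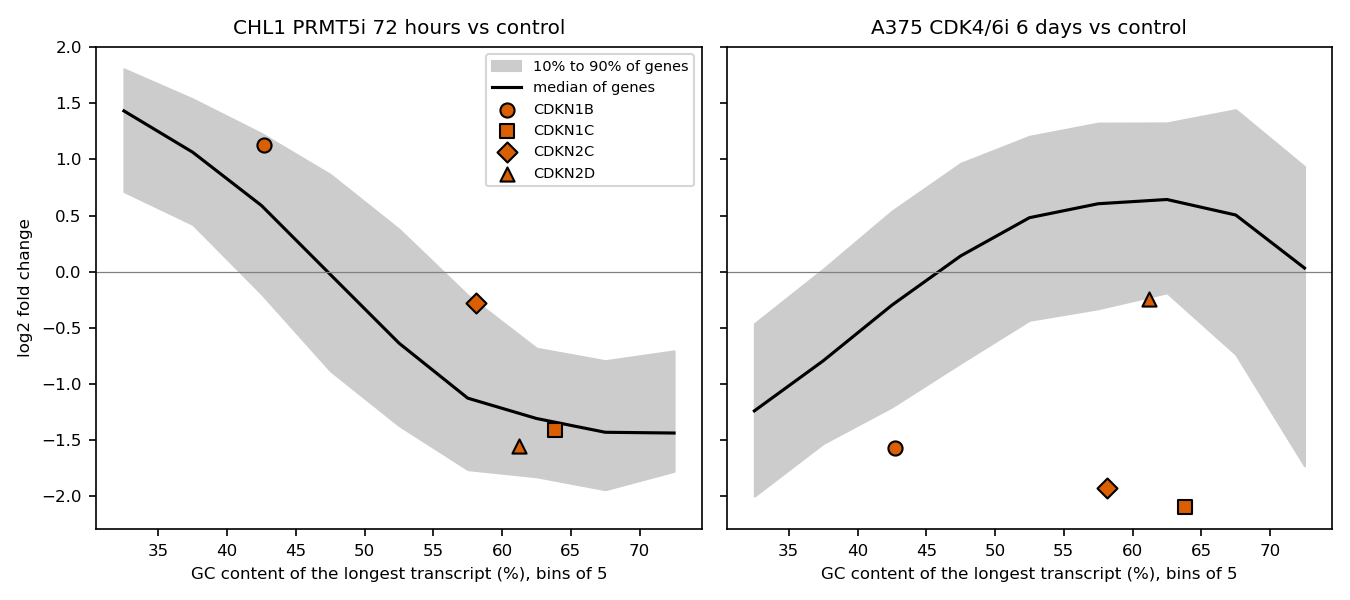
Log2 fold change (vertical axis) against the GC content of transcripts in bins of 5% (horizontal axis) for CHL1 PRMT5i and A375 CDK4/6i at 6 days. The line is the median of all genes in a bin, the band runs from the 10th to the 90th percentile, and symbols are the 4 members. Under CHL1 PRMT5i, CDKN1C and CDKN2D lie close to the falling line, and CDKN1B and CDKN2C lie above it, whereas for A375 at 6 days the 4 members lie below the line, which rises and then turns down at the highest GC content.

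Under CHL1 PRMT5i the Spearman correlation between GC content and log2 fold change was -0.817 over the 13675 genes used. In A375 at 6 days it was 0.590, and in the other 4 treatment comparisons it lay between 0.103 and 0.292. These are correlations across genes of the same libraries, given as descriptions. What lies behind the GC trend was not tested, and its part in the CDKN1C and CDKN2D values is as large as the difference between the values before and after the correction.

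The lines were then set against each other. In the 72-hour controls, CHL1 held less CDKN2C than A375 (26.5 ± 4.09 against 50.2 ± 5.69 CPM, SD, n = 2, log2 difference -0.92, edgeR adjusted p = 0.000271). It also held less CDKN2D (5.44 ± 0.0264 against 13.4 ± 0.633 CPM, log2 difference -1.30, edgeR adjusted p = 0.000276). CDKN1B (0.46, edgeR adjusted p = 0.0767) and CDKN1C (0.60, edgeR adjusted p = 0.0818) did not pass. Thus 2 of 4 members were called against 58.9% of all genes. The lines also differ in medium, and the control libraries in series, which cannot be told apart from the line.

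For 72 hours of CDK4/6i, edgeR called a difference between the lines' changes for 0 of 4 members against 0.642% of all genes. At an unadjusted p under 0.05, with no share of all genes to set beside it, the count was 1 of 4, CDKN1B at 0.72 (edgeR adjusted p = 0.408). DESeq2 called 0 of 4. At 6 days 3 of 4 were called against 21.9%. The CHL1 change exceeded the A375 change by 2.48 for CDKN1B (SE 0.31, edgeR adjusted p = 7.47e-05), 1.81 for CDKN2C (SE 0.26, edgeR adjusted p = 0.000216) and 1.18 for CDKN1C (SE 0.41, edgeR adjusted p = 0.0464). CDKN1B rose in CHL1 and fell in A375, CDKN1C fell in both but more in A375, and CDKN2C passed in A375 only. For CDKN2D the difference of 0.89 (SE 0.36) missed the threshold (edgeR adjusted p = 0.0857). The 2 lines have different kinds of control in this comparison, 72 hours in CHL1 and 6 days in A375.

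For PRMT5i the change differed between lines for 3 of 4 members against 40.9% of all genes. The CHL1 change exceeded the A375 change by 1.41 for CDKN1B (SE 0.31, edgeR adjusted p = 0.00158), and lay below it for CDKN1C at -1.70 (SE 0.41, edgeR adjusted p = 0.00337) and for CDKN2D at -1.01 (SE 0.38, edgeR adjusted p = 0.0380). For CDKN2C the difference was -0.01 (SE 0.26). After GC correction CDKN1B kept its call at 0.88 (edgeR adjusted p = 0.0147), while CDKN1C came to -0.24 (edgeR adjusted p = 0.717) and CDKN2D to 0.29.

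The 2 inhibitors were also compared directly at 72 hours, at the dose each was given. In CHL1 all 4 members were called, against 57.8% of all genes. PRMT5i libraries held more CDKN1B than CDK4/6i libraries (log2 0.76, edgeR adjusted p = 0.00210) and more CDKN2C (0.46, edgeR adjusted p = 0.0493), and less CDKN1C (-0.65, edgeR adjusted p = 0.0412) and CDKN2D (-1.52, edgeR adjusted p = 0.000460). After GC correction CDKN1B (0.18) and CDKN2D (-0.18) were no longer called, CDKN1C turned to 0.87 (edgeR adjusted p = 0.00835) and CDKN2C came to 1.63 (edgeR adjusted p = 4.86e-05). The CDKN1C call ended without CDK4/6i replicate 1 (edgeR adjusted p = 0.0618), CDK4/6i replicate 2 (0.182) or PRMT5i replicate 1 (0.224), and the CDKN2C call without CDK4/6i replicate 1 (0.109), CDK4/6i replicate 2 (0.268) or PRMT5i replicate 2 (0.148). In A375 edgeR called 0 of 4 against 5.45%, DESeq2 called 0 of 4, and 1 of 4 had an unadjusted p under 0.05, CDKN2C at 0.56 (edgeR adjusted p = 0.0948).

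Between the 2 times of CDK4/6i in CHL1, edgeR called 0 of 4 members against 0.0145% of all genes, and DESeq2 called 0 of 4. At an unadjusted p under 0.05 there were 3 of 4, CDKN1B (0.56), CDKN2C (0.64) and CDKN2D (0.70), all higher at 6 days. The share of all genes at that threshold was not counted, and the 0.0145% belongs to the adjusted p. In A375 each time has its own control, and the change at 6 days minus that at 72 hours was -1.16 for CDKN1B, -1.87 for CDKN1C, -1.06 for CDKN2C and 0.12 for CDKN2D. In edgeR 0 of 4 passed against 1.08% of all genes (edgeR adjusted p = 0.0831, 0.0502, 0.0656 and 0.882), 3 of 4 had an unadjusted p under 0.05, and DESeq2 called 3 of 4. The 1.08% belongs to the edgeR adjusted p only, not to the unadjusted or DESeq2 counts. Without 6-day control replicate 2, CDKN1B (edgeR adjusted p = 0.000552), CDKN1C (0.00668) and CDKN2C (0.00333) passed, and without 6-day control replicate 1 CDKN2C did (0.0322).

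The A375 controls themselves differed between times, with 3 of 4 members called against 47.8% of all genes. CDKN1B (0.74, edgeR adjusted p = 0.0124) and CDKN1C (0.75, edgeR adjusted p = 0.0472) were higher at 6 days and CDKN2D was lower (-1.26, edgeR adjusted p = 0.00109), while CDKN2C was at -0.17 (edgeR adjusted p = 0.481). After GC correction CDKN1B came to 0.31 and lost its call, CDKN1C came to 1.62, CDKN2D to -0.51, and CDKN2C turned to 0.56 (edgeR adjusted p = 0.0363). The CDKN1B call ended without 72-hour control replicate 1 (edgeR adjusted p = 0.104) or 6-day control replicate 1 (0.132), and that of CDKN1C without any of the 4 libraries (0.0592 to 0.267). These groups differ in time and in library series at once.

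Ordered by level, CDKN1B was highest in CHL1 PRMT5i (157 ± 5.25 CPM, SD, n = 2), followed by CHL1 CDK4/6i at 6 days (137 ± 26.98), CHL1 CDK4/6i at 72 hours (93.8 ± 1.54) and the A375 6-day control (91.7 ± 33.8). The CHL1 control (72.6 ± 5.44 CPM) came next, then the A375 72-hour control (53.0 ± 5.55), A375 PRMT5i (43.0 ± 2.20), A375 CDK4/6i at 72 hours (41.6 ± 4.78) and at 6 days (30.8 ± 5.47). No neighbours in this order differed in edgeR. For CDKN1C the order ran from the A375 6-day control (9.04 ± 0.388 CPM) and the CHL1 control (7.86 ± 0.170) down to CHL1 PRMT5i (2.91 ± 0.799) and A375 CDK4/6i at 6 days (2.11 ± 0.721), and again no neighbours differed. For CDKN2C the A375 controls led (50.2 ± 5.69 CPM at 72 hours, 46.01 ± 2.07 at 6 days) and A375 CDK4/6i at 6 days was last (12.1 ± 2.37). There the only neighbours that differed were CHL1 PRMT5i (21.6 ± 2.37 CPM) and CHL1 CDK4/6i at 72 hours (15.9 ± 1.64, edgeR adjusted p = 0.0481). For CDKN2D the 3 A375 groups of 72 hours led, from 13.4 ± 0.633 CPM in the control to 9.11 ± 1.80 under PRMT5i. The only step that passed was from A375 CDK4/6i at 6 days (4.89 ± 0.192 CPM) to CHL1 PRMT5i, the lowest group (1.84 ± 0.748, edgeR adjusted p = 0.000147).

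Levels of different genes can be compared only per length, and here as CPM per kilobase of exon (RPKM) over the union of each gene's exons. The 4 members together came to 23.4 RPKM in the CHL1 control, 20.8 with CDK4/6i at 72 hours, 30.3 at 6 days and 26.5 with PRMT5i. In A375 the sum was 33.3 RPKM in the 72-hour control, 23.1 with CDK4/6i, 26.9 with PRMT5i, 32.6 in the 6-day control and 11.5 with CDK4/6i at 6 days. The CDKN1B share of the sum was 33.5% ± 0.146 (SD, n = 2) in the CHL1 control, 48.7% ± 0.670 and 48.6% ± 3.86 after CDK4/6i at 72 hours and 6 days, and 64.1% ± 3.11 under PRMT5i. In the A375 groups of 72 hours it lay between 17.2% and 19.4%, and at 6 days it was 29.96% ± 8.17 in the control and 29.0% ± 0.615 with CDK4/6i. CDKN2C held 37.4% in the CHL1 control and 25.3% and 26.9% after CDK4/6i at 72 hours and 6 days. In A375 it led every group, with 35.0% to 50.9%. These shares depend on the length used: by the longest transcript, which shortens CDKN1B from 9255 to 4335 bases, CDKN1B held 49.6% in the CHL1 control and came first in all CHL1 groups and in both A375 6-day groups.

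**Figure D4:**
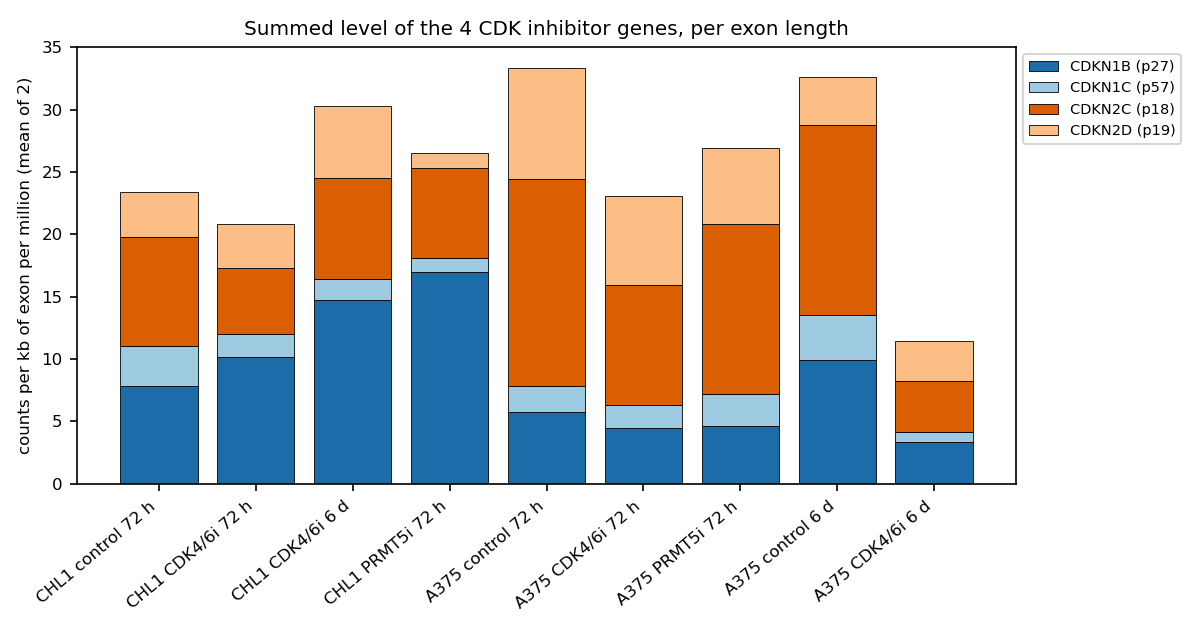
Stacked bars from 0 of the mean RPKM (union of exons, 2 libraries) of the 4 CDK inhibitor genes in each of the 9 groups. The A375 CDK4/6i bar at 6 days is the shortest, with a sum of 11.5 RPKM, and the CDKN1B part of the CHL1 bars widens from the control to PRMT5i.

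The genes whose pattern was most like each member were found by Pearson correlation of log2(CPM + 1) over the 18 libraries, after the mean of each cell line was taken off, among 12126 genes of at least 5 CPM on average. These are descriptions of shared libraries, depth and base composition. The nearest genes to CDKN1B were CLIC4 (r = 0.974), C4orf46 (0.951) and TMEM19 (0.950). For CDKN1C they were the histone genes HIST1H4J (0.884), HIST1H2AI (0.879) and HIST1H4E (0.877). For CDKN2C they were C15orf38-AP3S2 (0.938), INSIG1 (0.896) and a locus named only by its clone (0.896), and for CDKN2D PLEKHH3 (0.959), ZBTB45 (0.954) and TMEM173 (0.950). After GC correction only TMEM19 (0.931, CDKN1B) and C15orf38-AP3S2 (0.957, CDKN2C) were again among the 3 nearest. Between members, CDKN1C and CDKN2C were most alike (r = 0.74), then CDKN1B and CDKN2C (0.55), and the other 4 pairs lay between -0.20 and 0.39.

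The genes around the CDK inhibitors were taken from a list of 41, of which 38 have a row. They are the kinases and cyclins that the inhibitors bind, the RB family, CDKN1A, the ubiquitin ligase parts that remove p27, transcriptional regulators and neighbouring genes. CDK2, MTAP and KCNQ1OT1 are not analysed here. With CDK4/6i for 72 hours in CHL1, 1 rose and 4 fell (13.2% of the list, against 4.98% of all genes). At 6 days 5 rose and 6 fell (28.9% against 16.6%). Under PRMT5i in CHL1 15 rose and 16 fell (81.6% against 54%). After GC correction 5 rose and 6 fell of the 37 genes with a GC value, where 4758 of all 13675 genes in that fit were called. The share of the list was then below that of all genes. In A375, 7 rose and 9 fell with CDK4/6i at 72 hours (42.1% against 13.3%), 10 rose and 13 fell at 6 days (60.5% against 43.1%), and 2 rose and 5 fell under PRMT5i (18.4% against 2.61%).

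**Figure D5:**
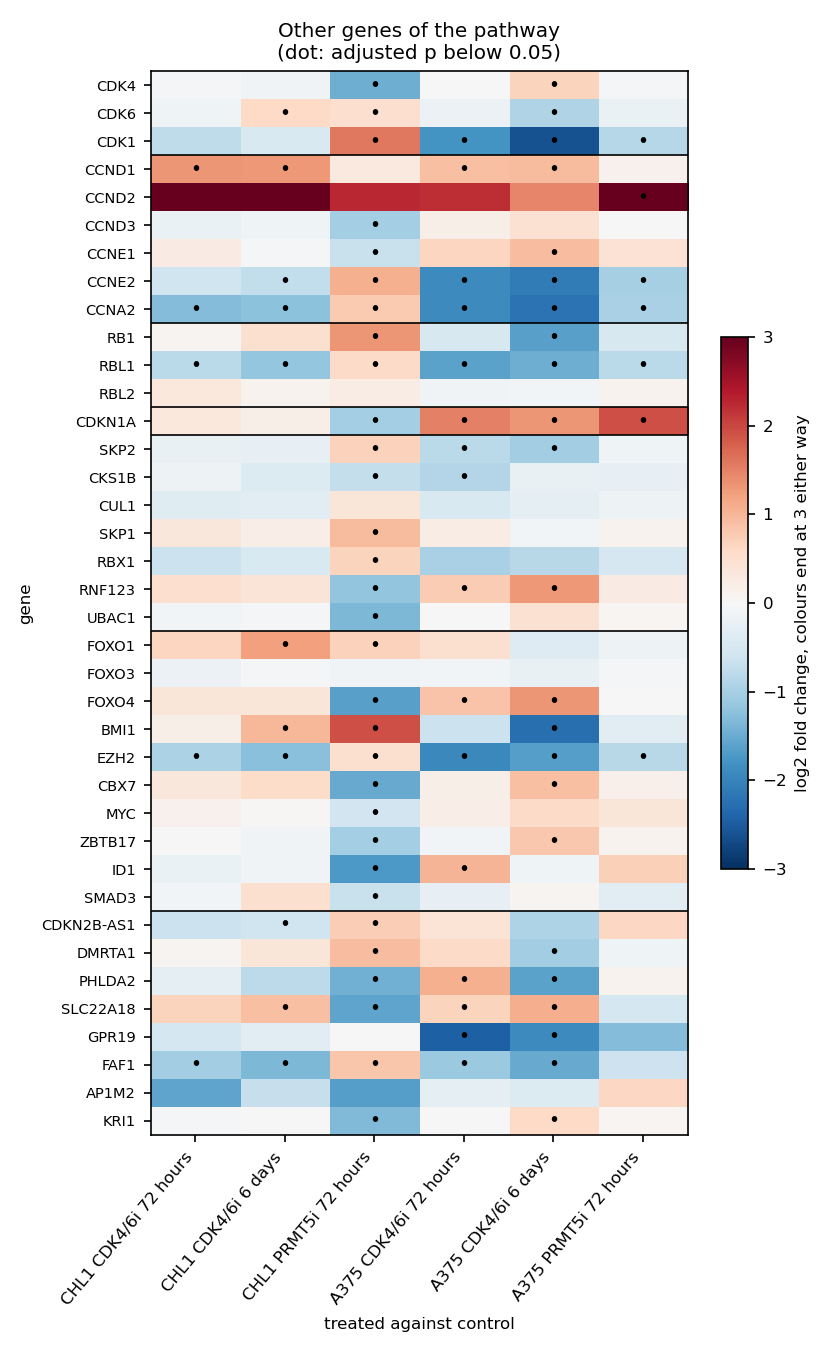
Log2 fold change (colour, ending at 3 in either direction) of the 38 pathway genes in rows and the 6 treatment comparisons in columns. A dot marks an adjusted p under 0.05. CCND1 is higher with CDK4/6i in all 4 of those columns, where EZH2, RBL1, CCNA2 and FAF1 are lower, and 31 of 38 genes carry a dot under CHL1 PRMT5i.

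Among the kinases, CDK4 fell under PRMT5i in CHL1 (log2 -1.47, edgeR adjusted p = 0.000166), and the fall remained after GC correction (-0.95, edgeR adjusted p = 0.00147). CDK6, the other INK4 target, was at group means of 9.85 to 16.1 CPM in CHL1 and 513 to 1079 CPM in A375. It was higher in CHL1 at 6 days of CDK4/6i (0.59, edgeR adjusted p = 0.0477) and lower in A375 at 6 days (-0.90, edgeR adjusted p = 0.00137), the latter at -0.34 after GC correction (edgeR adjusted p = 0.0831). CDK1, the mitotic kinase, had the steepest fall of the list in A375 at 6 days on the counts as deposited (-2.60, edgeR adjusted p = 2.77e-06). After GC correction CDK1 came to -1.72 (edgeR adjusted p = 2.53e-05), and PHLDA2 (-2.13) and CCNA2 (-1.88) lay lower.

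CCND1, the cyclin D1 gene, was the called gene with the largest rise in CHL1 at both times of CDK4/6i. It went from 319 CPM in the control to 808 CPM at 72 hours (1.34, edgeR adjusted p = 0.00141) and 784 CPM at 6 days (1.31, edgeR adjusted p = 0.000533). In A375 it went from 381 to 737 CPM at 72 hours and from 384 to 740 CPM at 6 days. CCNA2, the cyclin A2 gene of S phase, had the largest called fall in CHL1 at 72 hours (-1.29, edgeR adjusted p = 0.00433). Under PRMT5i in A375 the largest called fall was in CCNE2, the cyclin E2 gene (-0.99, edgeR adjusted p = 0.0394). The largest called rise was in CCND2, which had 1 and 3 reads in the controls and 30 and 34 under PRMT5i (edgeR adjusted p = 0.00600). After GC correction CCNE2 came to -0.86, and CCNA2 lay slightly lower at -0.90.

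CDKN1A, the p21 gene, had the largest called rise of the list in A375 with 72 hours of CDK4/6i, from 128 to 382 CPM (1.52, edgeR adjusted p = 0.00215). In A375 it also rose under PRMT5i, to 496 CPM (1.94, edgeR adjusted p = 0.00305), and at 6 days of CDK4/6i (1.32, edgeR adjusted p = 0.00155). In CHL1 CDKN1A was not called with CDK4/6i at either time. Its fall under PRMT5i there (-1.01, edgeR adjusted p = 0.00796) came to -0.01 after GC correction. SKP2, which recruits p27 for ubiquitination, fell in A375 at 72 hours (-0.80, edgeR adjusted p = 0.0106) and 6 days (-1.03, edgeR adjusted p = 0.000547) of CDK4/6i. After GC correction these values were -0.65 (edgeR adjusted p = 0.00506) and -0.54 (edgeR adjusted p = 0.00737). In CHL1 SKP2 was at -0.23 and -0.24 with CDK4/6i, which did not pass, and its rise under PRMT5i (0.68, edgeR adjusted p = 0.0119) came to -0.06 after GC correction (edgeR adjusted p = 0.786). FOXO4, a forkhead factor of the family known to act on CDKN1B, had the largest called rise in A375 at 6 days on the counts as deposited (1.34, edgeR adjusted p = 0.000174). After GC correction FOXO4 came to 0.78 (edgeR adjusted p = 0.00382), just under CDKN1A at 0.83.

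Of the chromatin and transcription regulators, BMI1, a Polycomb protein known for silencing the INK4 locus, had the largest called rise under PRMT5i in CHL1 (1.94, edgeR adjusted p = 0.000274, and 1.15 after GC correction). ID1, an inhibitor of helix-loop-helix factors, had the largest fall there (-1.72, edgeR adjusted p = 0.000283, and -0.69 after GC correction). After that correction CKS1B (-1.12) and CDK4 (-0.95) lay lower than ID1. FAF1, the neighbour of CDKN2C on chromosome 1, had the largest fall in CHL1 at 6 days (-1.35, edgeR adjusted p = 0.000930). GPR19, whose span overlaps CDKN1B, had the largest fall in A375 with CDK4/6i at 72 hours (-2.45, edgeR adjusted p = 0.00908). Its level there was low, at 4.03 ± 0.514 CPM (SD, n = 2) in the control and 0.756 ± 0.771 CPM in the treated group. The treated libraries were far apart and had at most 26 reads. CDKN2B-AS1 (ANRIL), the antisense RNA of the INK4 locus at chr9:21994138-22128102 on GRCh37, had 643 and 736 reads in the CHL1 controls, 397 and 447 after 72 hours of CDK4/6i, 372 and 369 after 6 days and 1153 and 1151 under PRMT5i. Its fall at 6 days passed (-0.59, edgeR adjusted p = 0.0407), and its rise under PRMT5i (0.75, edgeR adjusted p = 0.00338) came to -0.29 after GC correction (edgeR adjusted p = 0.218). In A375 it had between 0 and 42 reads per library. Of its exon bases 593 (2.9%) overlap CDKN2A on the other strand.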

How the data were processed

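Poly-A RNA of 18 libraries (9 groups of 2) was sequenced as paired reads. The authors aligned it with HISAT2 2.0.4 to GRCh37, counted reads per gene with HTSeq (0.11.2 in the submitters' processing notes) and removed low genes with edgeR. The deposited table holds whole-number counts for 20705 gene symbols, although it is named as normalised. Groups came from the sample labels.

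Comparisons within a line were fitted on all libraries of that line, and those between lines on all 18, in edgeR 4.0.16 (R 4.3.3) with 1 coefficient per group, TMM scaling and the quasi-likelihood test, and p-values were adjusted over all genes. This gave 15 comparisons, 6 of treatment against control. Total counts bound the precision. The p-values rest on a spread estimated over all libraries of a fit and moderated across genes, not on 2 libraries alone. The A375 72-hour tests thus share the spread of the A375 6-day libraries. Replicates disagreed most in the A375 6-day control, at a chi-square per degree of freedom of 118 against 7.60 to 13.7 in the A375 72-hour groups. For the GC correction, a loess curve (span 0.4) of each library's departure from the mean log2 level of the fitted libraries on transcript GC, over 13675 genes of at least 1 CPM, was entered as an offset, and p-values were adjusted over those genes. Alternatives were a filter of 1 CPM in 2 libraries, median-of-ratios scaling, DESeq2 1.42.0, all 18 libraries, only the compared groups, a replicate block, and leaving out each library. Fits of the 6 A375 libraries of 72 hours alone were added after seeing the data. Transcript GC, lengths and loci came from GENCODE on GRCh37. Scripts were tested on simulated data.

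The members and lists were chosen with earlier results of these data known. Named genes were all members. From the pathway list they were the called gene with the largest change each way per treatment comparison, with both treated libraries beyond both controls, and also CDKN1A, SKP2, CDK4, CDK6, CCND1, MTAP and CDKN2B-AS1. For each member they were the 3 genes most correlated with it. Other genes in the report's figure captions were chosen after their values were seen.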

Additional observations from a re-analysis of the deposited data

Results flagged for a closer look

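The change under treatment differed between CHL1 and A375, by the interaction term in edgeR, for 3 members at 6 days of CDK4/6i and for 3 members under PRMT5i. At 6 days the difference (CHL1 minus A375, log2) was 2.48 for CDKN1B, from 0.93 in CHL1 and -1.57 in A375, and it was 2.26 after GC correction. For CDKN2C it was 1.81, from -0.10 and -1.92, and 2.30 after GC correction. For CDKN1C it was 1.18, from -0.90 and -2.10, and 1.502 after GC correction (edgeR adjusted p = 0.0176). The CDKN1C difference lost its call without CHL1 control replicate 1 (edgeR adjusted p = 0.120), CHL1 control replicate 2 (0.105), CHL1 6-day CDK4/6i replicate 1 (0.164), A375 6-day control replicate 1 (0.0958) or A375 6-day CDK4/6i replicate 2 (0.166). CDKN2D, at 0.89, gained a call without A375 6-day control replicate 1 (edgeR adjusted p = 0.0294), after GC correction (1.25, edgeR adjusted p = 0.00171) and in DESeq2 (adjusted p = 0.0378).

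Under PRMT5i the difference was 1.41 for CDKN1B, from 1.13 in CHL1 and -0.31 in A375. It was -1.70 for CDKN1C, from -1.41 and 0.25, and -1.01 for CDKN2D, from -1.55 and -0.57. After GC correction these values were 0.88, -0.24 and 0.29. The CDKN2D difference lost its call without CHL1 control replicate 1 (edgeR adjusted p = 0.0650), CHL1 control replicate 2 (0.0664), CHL1 PRMT5i replicate 1 (0.219), A375 control replicate 1 (0.113), A375 control replicate 2 (0.0568) or A375 PRMT5i replicate 2 (0.150). Part of what separates the lines here moves with GC content, and the source of that trend was not tested.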

How the results depend on the processing

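Counts of members called (of 4) moved by over 1.5 times, or to or from 0, as follows. With GC correction they went to 2 for CDK4/6i at 72 hours in CHL1 (from 1) and in A375 (from 1), 1 for PRMT5i in A375 (from 0), 2 for PRMT5i against CDK4/6i in CHL1 (from 4) and 1 in A375 (from 0), and 2 for the A375 change at 6 days minus that at 72 hours (from 0). Smaller moves with GC correction were to 2 (from 3) for CHL1 PRMT5i and the line difference under PRMT5i, to 4 (from 3) for A375 CDK4/6i at 6 days and the line difference there, and to 3 (from 2) between the lines' controls. With only the compared groups they went to 3 and 2 for CDK4/6i at 72 hours in CHL1 and A375, and to 1 for A375 PRMT5i against CDK4/6i. The A375 time difference gave 2 with all 18 libraries in the fit, 2 with median-of-ratios scaling and 3 with DESeq2. The 6 A375 libraries of 72 hours alone, a fit added after seeing the data, gave 2 for CDK4/6i, 1 for PRMT5i and 1 for PRMT5i against CDK4/6i, and with GC correction 2, 2 and 1.

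A replicate block gave 0 for CHL1 CDK4/6i at 72 hours, 3 for A375 CDK4/6i at 72 hours (8752 of all genes) and 3 for A375 PRMT5i (6113 of all genes). It gave 2 each for PRMT5i against CDK4/6i in CHL1 and A375. With GC correction the block gave 3, 4, 3, 2 and 2. No label says what same-numbered libraries share beyond the number, and there are only 2 numbers per group. Deviations of same-numbered libraries correlated at -0.34 to 0.44 in CHL1 and 0.22 to 0.48 in A375. In A375 all 3 pairs of 72-hour groups were above 0.1. Only the A375 6-day groups could not be blocked, since their columns carry no replicate numbers.

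Leaving out each library gave 0 members called for CHL1 CDK4/6i at 72 hours, 0 to 2 at 6 days and 3 for PRMT5i. In A375 it gave 0 to 1, 3 and 0. It gave 2 to 3 for CHL1 PRMT5i against CDK4/6i, 0 to 3 for the A375 time difference, 1 to 2 for the A375 controls, and 2 to 3 for the line differences at 6 days and under PRMT5i.

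Directions turned after GC correction for CDKN2C under CHL1 PRMT5i (0.78, with the block 0.79), CDKN1C in CHL1 PRMT5i against CDK4/6i (0.87, with the block 0.87), CDKN2D in the A375 time difference (-0.22), CDKN2C between the A375 controls (0.56), and the line difference under PRMT5i of CDKN2C (1.15) and CDKN2D (0.29). CDKN2C in that line difference was also 0.090 with median-of-ratios scaling and with DESeq2. The cause was not tested. Without 1 library, uncalled values near 0 changed sign: CDKN2C in CHL1 at 6 days (-0.25 to 0.063), CDKN1C in A375 CDK4/6i at 72 hours (-0.61 to 0.076), CDKN2D in A375 at 6 days (-0.55 to 0.15), CDKN1B in A375 PRMT5i against CDK4/6i (-0.019 to 0.22), CDKN1C in CHL1 between times (-0.36 to 0.031), CDKN2D in the A375 time difference (-0.19 to 0.52), CDKN2C between the A375 controls (-0.28 to 0.027), and CDKN2C in the line differences for CDK4/6i at 72 hours (-0.10 to 0.24) and PRMT5i (-0.20 to 0.15).

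Over all genes, calls for CHL1 CDK4/6i at 72 hours went from 1032 to 2189 with GC correction, 1671 with DESeq2, 4202 with only the compared groups and 2428 with block and GC correction. CHL1 PRMT5i went from 11176 to 4758 with GC correction and 4958 with the block as well. A375 CDK4/6i at 72 hours went from 2761 to 6940 with the compared groups, 8752 with the block, 7295 with block and GC correction, and 6424 in the 6 libraries alone. A375 CDK4/6i at 6 days went from 8928 to 5797 with GC correction and 5862 with the compared groups. A375 PRMT5i went from 541 to 1403 with GC correction, 911 with DESeq2, 1861 with the compared groups, 6113 with the block and 3265 in the 6 libraries alone. The lowest read counts of a member in a library were 39 for CDKN2D, in CHL1 under PRMT5i, and 60 for CDKN1C, in A375 with CDK4/6i at 6 days.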
